A study of Mus musculus with 6 samples.

Results

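The genes described here make itaconate or handle the citrate from which it is made. They are *Acod1* (aconitate decarboxylase, also known as *Irg1*), *Cs*, *Aco1*, *Idh1*, *Idh2*, *Idh3a*, *Ogdh*, *Slc25a1* and *Acly*, 9 of the 55335 mouse genes in the deposited table, found by gene symbol. They were chosen by the FPKM values of these same libraries, in which the difference of *Acod1* between the groups was already known, so their values are given as a description without a test. RNA-seq was performed on 6 libraries of bone marrow-derived macrophages (BMDMs), which are macrophages grown in culture from bone marrow cells. The bone marrow came from *Cd177* WT mice and was cultured for 7 days with macrophage colony-stimulating factor at 25 ng/ml. Each culture then spent 24 h with neutrophils taken by magnetic sorting from injured spinal cord at 3 days post-injury (dpi), and BMDMs were recovered as Ly6G-negative cells by FACS. The neutrophils came from *Cd177* WT mice in 3 libraries and from *Cd177* KO mice, which lack the neutrophil surface protein CD177, in the other 3. The methods state that all animals were male and give C57BL/6 and 8 weeks for purchased adult mice. For the *Cd177* KO mice they give no strain, and an age (8 weeks) only for donors of transplanted bone marrow. Neither source says whether the 3 libraries of a group came from separate animals or cultures, so the spread between them may be technical.

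Citrate is formed in mitochondria from oxaloacetate and acetyl-CoA and enters the tricarboxylic acid (TCA) cycle, where aconitase converts it through cis-aconitate to isocitrate. In macrophages exposed to inflammatory signals ACOD1 is known to remove a carboxyl group from cis-aconitate, which yields itaconate, and itaconate is known to inhibit succinate dehydrogenase and to modify KEAP1, the inhibitor of the antioxidant regulator NRF2. Citrate can also leave the mitochondrion through the carrier encoded by *Slc25a1* and be split by ATP citrate lyase into acetyl-CoA for lipid synthesis and protein acetylation.

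The promoter of *Acod1* is shown because this gene had the lowest values of the 9 in one group and the highest in the other, and that of *Idh2* because it had the largest difference in the opposite direction. Both stretches were read from the RefSeq promoter table (GRCm38.p6) and run 5′ to 3′ from 150 to 21 bases before the RefSeq start of the gene. The *Acod1* stretch is chr14:103046862-103046991 on the plus strand, and the *Idh2* stretch is chr7:80115371-80115500 on the minus strand. Capitals mark matches to the motifs named after the sequences.
Acod1: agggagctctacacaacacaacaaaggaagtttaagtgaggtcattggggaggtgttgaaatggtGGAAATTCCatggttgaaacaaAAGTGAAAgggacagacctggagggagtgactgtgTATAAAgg
Idh2: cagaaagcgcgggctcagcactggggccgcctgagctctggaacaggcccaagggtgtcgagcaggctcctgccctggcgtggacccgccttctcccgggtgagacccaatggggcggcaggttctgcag

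In the *Acod1* promoter the first capitals (GGAAATTCC, from -85 to -77) match the NF-κB type motif GGANTTTCC on the minus strand. The next (AAGTGAAA, from -63 to -56) match AANNGAAA, a pattern of interferon regulatory factor (IRF) sites, and the last (TATAAA, from -28 to -23) match a TATA box. Of 32851 promoter windows of 300 bases in the table, 1.25% hold the NF-κB type motif on either strand, 23.9% the IRF pattern and 13.6% TATAAA. The IRF pattern and TATAAA were searched after this promoter had been seen. Promoters of 8 of the 9 genes were in the table. Among these, *Acod1* was the 1 gene with the NF-κB type motif and the 1 gene with TATAAA, while the IRF pattern was also found in windows of *Cs* and *Ogdh*. The interferon-stimulated response element core GAAANNGAA (8.56% of all promoters), the sterol response motif TCACNCCAC (1.24%) and the antioxidant response motif TGACNNNGC (12.4%) had no match in these windows. The *Acod1* window had 47.0% G and C, the *Idh2* window 68.3%, and the median over all promoters was 52.7%. These matches describe letters and not occupied sites.

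The values are FPKM (fragment numbers divided by transcript length and by the library's total) as the authors deposited them. In genes with 1 annotated transcript, low values lay near multiples of 1 step per library (between 37.3% and 40.5% within 0.1 of a whole multiple, against 20% for evenly spread values). The step was set at the commonest of these low values, so a part of this excess is built in, and most values lay farther from a multiple. If 1 step is 1 fragment, which was not tested, each library held between 17600000 and 20300000 fragments. *Cd177* had 0.544, 0.309 and 0.521 FPKM with the WT label and 1.79, 1.84 and 2.28 FPKM with the KO label. The knockout lay in the added neutrophils, so this does not check the BMDMs. Its direction runs against the labels, but most neutrophil markers, given below, were also higher with the KO label. The reason was not tested, and each direction below is between libraries as labelled. The 9 macrophage markers summed to between 6737 and 8081 FPKM with the WT label and between 7320 and 8006 FPKM with the KO label, with none at 0. *Lyz2* made up most of this sum, and single markers differed, since in limma *Cd14* (log2 difference -3.33) and *Fcgr1* (-1.83) were lower and *Mertk* (0.72) and *Adgre1* (0.30) higher with the KO label. The 14 neutrophil markers summed to between 201.6 and 261.4 FPKM with the WT label and between 555.2 and 570.2 FPKM with the KO label, and of the 11 tested 9 were higher in the latter and 1, *Mmp8* (log2 difference -1.12), was lower, while over all tested genes 27.1% were higher and 10.5% lower in limma at an adjusted p-value under 0.05. *Ly6g*, the gene of the sorting marker, was listed at 0 with the WT label and had 0.660, 0.547 and 0.403 FPKM with the KO label. Markers of B cells summed to at most 1.35 against at least 13.0 FPKM, those of T cells to at most 2.12 against at least 5.07 FPKM, and those of spinal cord to between 4.66 and 7.08 FPKM over all libraries. Of these lists of 5 genes each, 3, 4 and 4 genes stayed under 0.5 FPKM in every library, *Snap25* and *Cd3d* at 0. The T cell sums came almost wholly from *Cd4*, with means of 1.76 and 5.56 FPKM with the WT and KO label. The part of other cell types in the results was not tested, and in bulk RNA fewer cells of a type cannot be told apart from less RNA per cell.

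*Acod1* (ENSMUSG00000022126, chromosome 14 from 103046977 to 103056573 on the plus strand of GRCm38) had 153.0, 155.3 and 140.5 FPKM in WT replicates 1, 2 and 3. In KO replicates 1, 2 and 3 it had 0.172, 0.164 and 0.103 FPKM. The groups lay far apart, and within each group the 3 libraries were close together. The means were 149.6 ± 7.96 and 0.147 ± 0.0377 FPKM (n = 3 each, ± SD). The log2 difference, KO minus WT, was -7.86 (standard error 0.09) on the scale of log2(FPKM + 0.5), which understates the change of a gene at such low values. The gene went from rank 251, 245 and 335 among all genes of its library to rank 16238, 16450 and 17227. In steps its values were about 7620, 7370 and 6641 with the WT label and about 7.96, 8.75 and 4.997 with the KO label. Read as fragments, the latter give 95% Poisson intervals of 0.0747 to 0.341, 0.0773 to 0.321 and 0.0336 to 0.241 FPKM, which cover counting error only. The 3 intervals overlap, so the libraries labelled KO could not be ranked for *Acod1* at this depth.

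**Figure D1:**
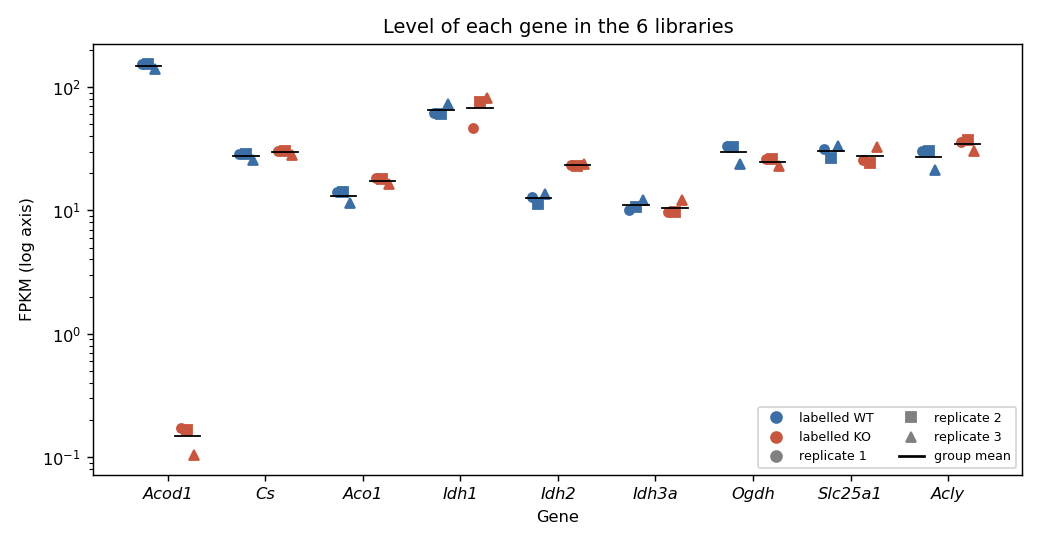
FPKM of the 9 genes in each of the 6 libraries on a log axis, with the libraries labelled WT in blue, those labelled KO in red, a marker shape for each replicate number and a line at each group mean. *Acod1* drops from between 140.5 and 155.3 FPKM to between 0.103 and 0.172 FPKM, while the other 8 genes stay between 9.65 and 81.5 FPKM in every library.

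With the WT label, *Acod1* made up 40.8%, 42.1% and 39.6% of the summed FPKM of the 9 genes. With the KO label its share was 0.0797%, 0.0675% and 0.0418%. The other 8 genes together had 222.2, 213.9 and 214.2 FPKM with the WT label and 216.0, 243.6 and 247.4 FPKM with the KO label, so their sums overlapped. Within the libraries labelled WT the order by mean was *Acod1*, *Idh1*, *Slc25a1*, *Ogdh*, *Cs*, *Acly*, *Aco1*, *Idh2* and *Idh3a*. The ranges of *Slc25a1*, *Ogdh*, *Cs* and *Acly* overlapped, as did those of *Aco1*, *Idh2* and *Idh3a*. With the KO label the order was *Idh1*, *Acly*, *Cs*, *Slc25a1*, *Ogdh*, *Idh2*, *Aco1*, *Idh3a* and *Acod1*, and from *Acly* to *Idh2* the range of each gene overlapped that of the next. *Idh2* thus moved from the eighth place to the sixth, and *Acod1* from the first to the last.

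All 9 genes reached the mean of 0.5 FPKM that was required for a test, *Acod1* through the libraries labelled WT alone. In 2 genes (*Aco1* and *Idh2*) every library labelled KO lay above every library labelled WT, and in 1 (*Acod1*) every one lay below. In the other 6 the groups overlapped. Over all 13367 tested genes the groups did not overlap in 37.5% with KO above WT and in 14.4% with KO below WT. Nothing is read from the members' counts beside these shares, since the values chose the members. The median log2 difference of all tested genes was 0.19, that of the 9 genes was 0.03, and that of the 8 without *Acod1* was 0.06. With median-of-ratios scaling between libraries the median of all tested genes was 0.00, and with upper-quartile scaling, rescaling to TPM and quantile normalization it was 0.11, 0.22 and 0.03.

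Citrate synthase, encoded by *Cs* (chromosome 10 from 128337734 to 128362479), makes citrate in mitochondria. It had 28.7, 28.5 and 25.6 FPKM with the WT label and 30.5, 30.2 and 28.0 FPKM with the KO label. Replicate 3 was the lowest in each group, and the groups overlapped through KO replicate 3, which lay below WT replicates 1 and 2. The log2 difference was 0.10 (standard error 0.09), which turned to -0.11 with median-of-ratios scaling. Relative to the median of all genes it was -0.09.

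*Aco1* (chromosome 4 from 40143081 to 40198338) encodes the cytosolic aconitase, which becomes the RNA-binding iron regulatory protein when it loses its iron-sulphur cluster. It had 14.04, 13.98 and 11.4 FPKM with the WT label and 18.2, 17.9 and 16.3 FPKM with the KO label, so each library labelled KO lay above all labelled WT. The log2 difference was 0.40 (standard error 0.11), 0.21 relative to the median of all genes, and 0.19 with median-of-ratios scaling.

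The isocitrate dehydrogenases turn isocitrate into oxoglutarate. *Idh2* (chromosome 7 from 80094846 to 80115392), the mitochondrial form that reduces NADP, had 12.9, 11.2 and 13.7 FPKM with the WT label and 23.4, 23.0 and 23.8 FPKM with the KO label. Its libraries labelled KO were close together and all above those labelled WT. The log2 difference was 0.87 (standard error 0.10), the largest upward difference among the 9 genes, and it was 0.66 with median-of-ratios scaling. *Idh1* (chromosome 1 from 65158616 to 65186500), the cytosolic form that reduces NADP, had 61.9, 60.1 and 72.9 FPKM with the WT label and 46.6, 75.5 and 81.5 FPKM with the KO label. One library decided its value. KO replicate 1 was the lowest of all 6 and the other two labelled KO the highest, so the log2 difference of 0.03 (standard error 0.21) became 0.28 without that library, and it was -0.19 with median-of-ratios and -0.06 with upper-quartile scaling. *Idh3a* (chromosome 9 from 54586334 to 54604661), the catalytic subunit of the form that reduces NAD, had 10.02, 10.7 and 12.2 FPKM with the WT label and 9.65, 9.74 and 12.1 FPKM with the KO label. The ranges of *Idh3a* were nearly the same in both groups, with a log2 difference of -0.06 (standard error 0.12), which was 0.02 without WT replicate 3, -0.17 without KO replicate 3 and -0.27 with median-of-ratios scaling.

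*Ogdh* (chromosome 11 from 6291633 to 6356642) encodes the first enzyme of the oxoglutarate dehydrogenase complex, the next step of the cycle. It had 33.2, 32.7 and 23.7 FPKM with the WT label and 25.9, 25.9 and 22.9 FPKM with the KO label. WT replicate 3 lay among the libraries labelled KO. The log2 difference was -0.24 (standard error 0.15), and -0.40 without that library, -0.16 without WT replicate 1 and -0.46 with median-of-ratios scaling.

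Export of citrate and its cleavage are the roles of *Slc25a1* (chromosome 16 from 17925223 to 17928219) and *Acly* (chromosome 11 from 100476353 to 100528000). *Slc25a1* had 31.2, 26.5 and 33.6 FPKM with the WT label and 25.6, 24.3 and 32.7 FPKM with the KO label, with replicate 3 the highest in each group. The groups overlapped, and the log2 difference was -0.15 (standard error 0.14). It was -0.36 with median-of-ratios scaling, -0.28 without KO replicate 3 and -0.07 without KO replicate 2. *Acly* had 30.4, 30.1 and 21.2 FPKM with the WT label and 36.1, 37.0 and 30.1 FPKM with the KO label. Here replicate 3 was the lowest in each group, and the overlap consisted of KO replicate 3 against WT replicates 1 and 2. The log2 difference of *Acly* was 0.35 (standard error 0.16), and it was 0.18 without WT replicate 3 and 0.13 with median-of-ratios scaling.

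**Figure D2:**
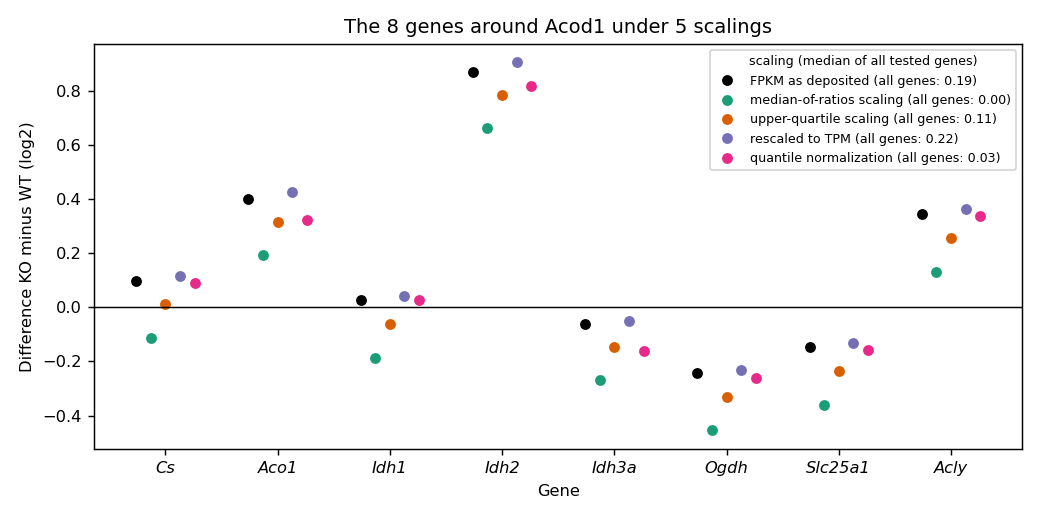
Log2 difference, KO minus WT, of the 8 genes other than *Acod1* with FPKM as deposited and with 4 other scalings between libraries, with the median of all tested genes for each in the legend. Median-of-ratios scaling lowers every gene, turning *Cs* to -0.11 and *Idh1* to -0.19, and *Idh2* is the highest under all 5.

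A factor between libraries cancels in ratios between genes of the same library, apart from the 0.5 added to each FPKM, which weighs on *Acod1* with the KO label, where the gene lies under 0.5 FPKM. The log2 ratio of *Acod1* to the mean of the other 8 genes was 2.66, 2.73 and 2.63 with the WT label and -5.23, -5.33 and -5.49 with the KO label. The difference of the group means was -8.02. It rests on the same values as the difference of *Acod1* given above, so it is a description and no added support. *Idh1* to *Idh2*, the cytosolic to the mitochondrial form, went from 2.32 ± 0.09 to 1.48 ± 0.43 (SD, n = 3 each). All 3 libraries labelled KO lay below those labelled WT in this ratio, KO replicate 1 at 0.98 and the other two at 1.69 and 1.76. *Acly* to *Slc25a1* was -0.04, 0.18 and -0.65 with the WT label and 0.49, 0.60 and -0.12 with the KO label. The groups thus overlapped through KO replicate 3. Replicate 3 had the lowest ratio in each group, with *Acly* at its lowest and *Slc25a1* at its highest. A shift that differs between genes of the same library does not cancel in a ratio. The longest transcripts of *Acly* and *Slc25a1* have 4426 and 1666 bases, and a part of transcript length was not tested. *Idh3a* relative to its partner subunits *Idh3b* and *Idh3g* was lower by 0.42, from -0.56 ± 0.09 to -0.97 ± 0.09 (SD, n = 3 each), again with no overlap.

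**Figure D3:**
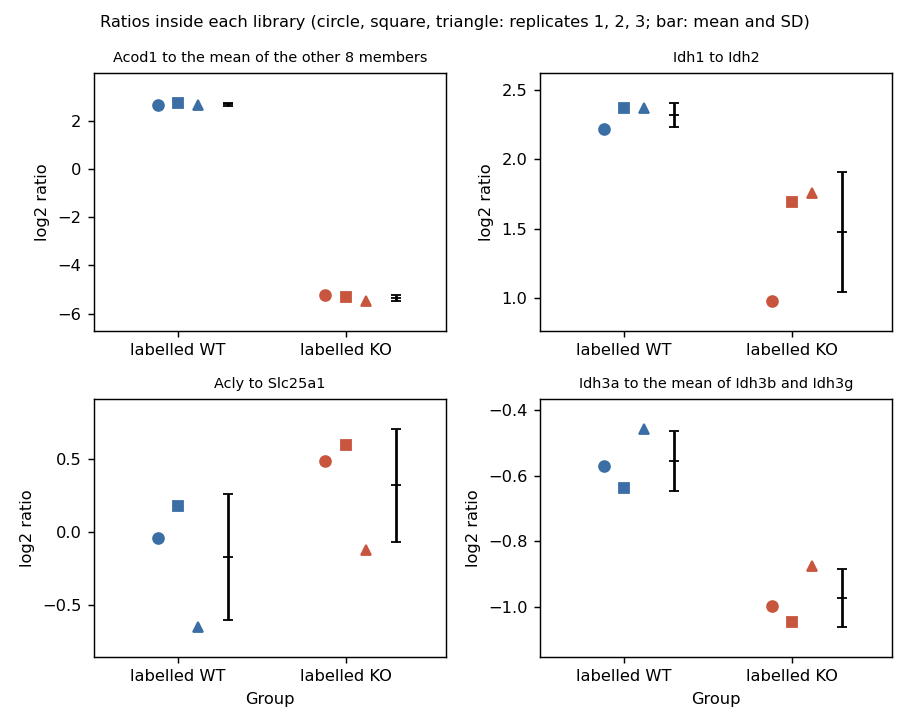
Log2 ratio of (FPKM + 0.5) between the named genes inside each library, 1 panel per ratio, with circles, squares and triangles for replicates 1, 2 and 3 and bars for the mean and SD of each group. In the first panel *Acod1* goes from between 2.63 and 2.73 to between -5.49 and -5.23, and *Acly* to *Slc25a1* is the ratio in which the groups overlap.

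The enzymes and carriers around these 9 genes were described from a list of 61 other genes, of which 56 were tested with limma on log2(FPKM + 0.5). With Benjamini-Hochberg adjustment over the 13367 tested genes, 19 were higher with the KO label and 8 were lower (adjusted p-value under 0.05), and 29 did not pass. Over all tested genes the shares were 27.1% higher and 10.5% lower. The median log2 difference of the list was 0.16 against 0.19 for all tested genes. These values of all tested genes are also the background for the counts by role below. With median-of-ratios scaling 10 genes of the list were higher and 13 lower. Of the 27 calls, 17 held in every alternative that tested the gene, namely 9 of the higher and all 8 of the lower ones.

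Of the 14 other TCA cycle genes 6 rose and none fell with FPKM as deposited, with a median of 0.30. Over all tested genes 27.1% were higher and 10.5% lower, with a median of 0.19. The rises were those of *Suclg2* (a subunit of succinyl-CoA ligase), *Fh1* (fumarase), *Sdhc* and *Sdha* (subunits of succinate dehydrogenase), *Idh3g* and *Idh3b*. *Suclg2* rose from 3.34 ± 0.196 to 6.70 ± 0.145 FPKM (n = 3 each, ± SD), a log2 difference of 0.91 (limma, adjusted p = 0.000399). *Fh1* had 9.16, 9.36 and 12.0 FPKM with the WT label and 19.1, 16.3 and 20.5 FPKM with the KO label, a log2 difference of 0.85 (limma, adjusted p = 0.00366). Both held under every alternative. With median-of-ratios scaling they were the 2 genes of this group that rose, and *Mdh2* fell.

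The smaller rises depended on the scaling. *Sdha* went from 37.7 ± 0.646 to 49.5 ± 0.451 FPKM (n = 3 each, ± SD), a log2 difference of 0.39 (limma, adjusted p = 0.00508, and 0.107 with median-of-ratios scaling). *Sdhc* had a log2 difference of 0.42 (limma, adjusted p = 0.0388), *Idh3g* of 0.37 (limma, adjusted p = 0.0225) and *Idh3b* of 0.35 (limma, adjusted p = 0.0412). With median-of-ratios scaling their adjusted p-values in limma were 0.292, 0.269 and 0.409. With 1 library left out these 3 genes could miss the threshold while their log2 differences stayed of similar size. *Sdhc* did not pass without WT replicate 1 (limma, adjusted p = 0.117), WT replicate 2 (0.111), KO replicate 1 (0.0803), KO replicate 2 (0.0914) or KO replicate 3 (0.110), with log2 differences from 0.35 to 0.46. *Idh3b* did not pass without the same libraries (limma, adjusted p = 0.122, 0.0785, 0.107, 0.0671 and 0.116 in the same order), with log2 differences from 0.27 to 0.40. *Idh3g* did not pass without WT replicate 1 (limma, adjusted p = 0.0761), KO replicate 2 (0.0900) or KO replicate 3 (0.0709), with log2 differences from 0.32 to 0.34.

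The remaining 8 did not pass. *Mdh2*, malate dehydrogenase, had a log2 difference of -0.27 (limma, adjusted p = 0.0890), and it passed with median-of-ratios scaling at -0.49 (adjusted p = 0.0192). Of 16 alternatives 6 called *Mdh2* lower. Besides that scaling these were upper-quartile, quantile and TPM scaling, the replicate block, and replicate 3 of both groups left out. The subunits *Sdhb* and *Sdhd* of succinate dehydrogenase had 0.11 and -0.09, unlike *Sdha* and *Sdhc*, although the difference between the subunits was not tested. *Dlst* and *Dld*, the partners of *Ogdh* in its complex, had 0.49 and -0.02. For *Dlst* the spread was large, since KO replicate 3 had 10.2 FPKM and the other libraries between 3.84 and 5.49 FPKM. *Suclg1* and *Sucla2*, the other subunits of succinyl-CoA ligase, had 0.11 and 0.25, and without WT replicate 3 *Sucla2* had 0.42 (limma, adjusted p = 0.0291).

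**Figure D4:**
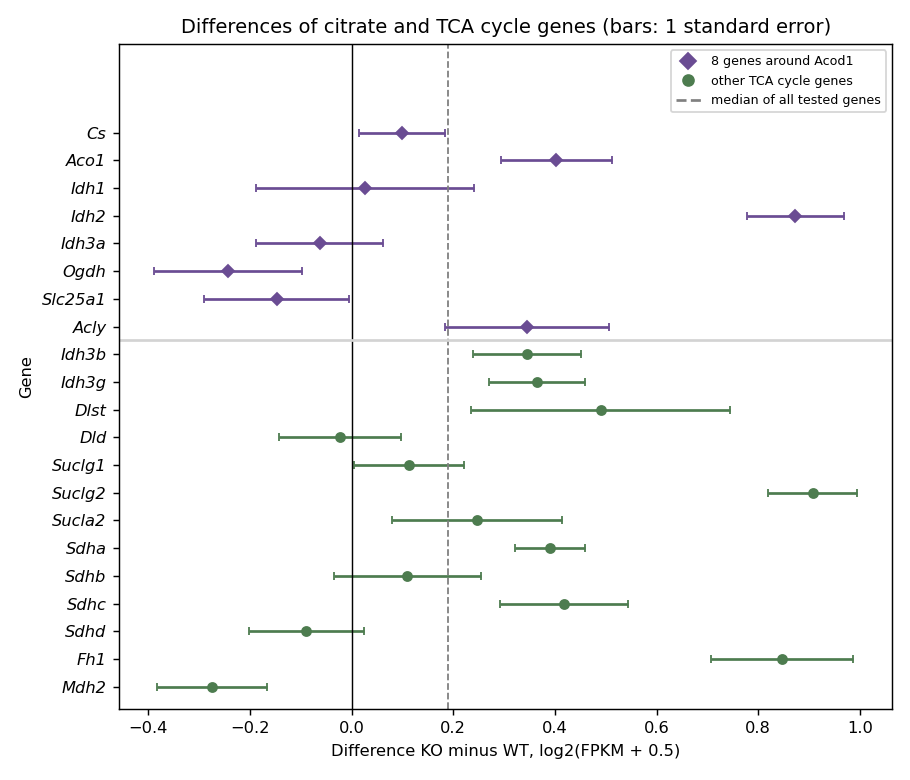
Log2 difference, KO minus WT, with bars of 1 standard error, for the 8 genes around *Acod1* (diamonds) and other TCA cycle genes (circles), with a dashed line at the median of all tested genes (0.19). *Idh2* at 0.87, *Suclg2* at 0.91 and *Fh1* at 0.85 lie farthest to the right, and *Mdh2* at -0.27 and *Ogdh* at -0.24 farthest to the left.

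Pyruvate enters the cycle through pyruvate dehydrogenase, which the kinases encoded by the *Pdk* genes switch off and the phosphatase encoded by *Pdp1* switches on. Of the 13 genes of pyruvate entry 5 rose and none fell with FPKM as deposited, while 3 rose and 2 fell with median-of-ratios scaling, 5 and 2 with upper-quartile scaling and 4 and 2 with quantile normalization. *Pdk4* had 2.53, 2.29 and 2.02 FPKM with the WT label and 19.2, 19.4 and 19.0 FPKM with the KO label. This log2 difference of 2.83 (limma, adjusted p = 4.45e-06) was the largest on the list in either direction. *Pdk2* rose by 1.00 (limma, adjusted p = 0.00221) and *Pdp1* by 0.72 (limma, adjusted p = 0.00265), and all 3 held under every alternative that tested them. *Pdha1*, a subunit of the dehydrogenase itself, rose by 0.41 (limma, adjusted p = 0.00598, and 0.107 with median-of-ratios scaling). *Pdk1* rose by 0.39 (limma, adjusted p = 0.0115). It missed the threshold with median-of-ratios scaling at 0.18 (limma, adjusted p = 0.140), with quantile normalization at 0.23 (0.0730) and without KO replicate 2 at 0.35 (0.0596). *Pdk3*, another of the kinases, had 9.66, 10.5 and 9.34 FPKM with the WT label and 6.96, 7.02 and 9.004 FPKM with the KO label, a log2 difference of -0.35 (limma, adjusted p = 0.0619). *Pcx*, pyruvate carboxylase, which makes oxaloacetate from pyruvate, had a log2 difference of -0.34 (limma, adjusted p = 0.0518). *Pdk3* passed without KO replicate 3 at -0.46 (limma, adjusted p = 0.0214), and both genes passed with median-of-ratios, upper-quartile and quantile scaling.

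Of the 9 genes of glutamine and amino acid entry 2 rose and 2 fell, and these 4 calls held throughout. *Glul*, glutamine synthetase, rose from 54.6 ± 0.824 to 98.9 ± 1.09 FPKM (n = 3 each, ± SD), a log2 difference of 0.85 (limma, adjusted p = 0.000184). *Glud1*, glutamate dehydrogenase, rose by 0.59 (limma, adjusted p = 0.00308). *Got1*, the cytosolic aspartate aminotransferase, went from 32.7 ± 3.401 to 17.6 ± 0.929 FPKM (n = 3 each, ± SD), with a log2 difference of -0.88 (limma, adjusted p = 0.000773). *Gclc*, which catalyses the first step of glutathione synthesis and is a known NRF2 target, went from 42.5 ± 4.79 to 17.6 ± 0.898 FPKM (n = 3 each, ± SD), with a log2 difference of -1.24 (limma, adjusted p = 0.000219).

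Among 8 genes of citrate use in the cytosol, 7 were tested, 1 rose and 2 fell. *Acss2*, which makes acetyl-CoA from acetate instead of citrate, had 1.90, 2.04 and 1.72 FPKM with the WT label and 0.447, 0.336 and 0.383 FPKM with the KO label, a log2 difference of -1.43 (limma, adjusted p = 0.000283). *Acsl1*, a long-chain acyl-CoA synthetase, had a log2 difference of -0.83 (limma, adjusted p = 0.00860). *Acat2*, an acetyl-CoA acetyltransferase, rose by 0.58 (limma, adjusted p = 0.00941, 0.0525 with median-of-ratios scaling and 0.0611 with quantile normalization). The other 4 tested genes of citrate use, *Acaca*, *Fasn*, *Mdh1* and *Me1*, did not pass. With median-of-ratios scaling *Me1*, malic enzyme, passed at -0.35 (limma, adjusted p = 0.0435), and this group then had 0 genes higher and 3 lower.

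Of 10 carriers 8 were tested, 4 rose and 3 fell. The falls were those of *Slc16a3* and *Slc16a1*, plasma membrane carriers of lactate and other monocarboxylates, and of *Slc25a22*, a mitochondrial glutamate carrier. *Slc16a3* had 51.1, 45.8 and 41.4 FPKM with the WT label and 16.8, 16.8 and 16.7 FPKM with the KO label, a log2 difference of -1.43 (limma, adjusted p = 8.06e-05). *Slc25a22* went from 10.1 ± 0.449 to 3.45 ± 0.257 FPKM (n = 3 each, ± SD), with -1.42 (limma, adjusted p = 7.36e-05), and *Slc16a1* had -0.89 (limma, adjusted p = 0.000467). The rises were smaller and were those of *Slc25a10*, the dicarboxylate carrier, with 0.60 (limma, adjusted p = 0.00200), *Abcg2*, an efflux pump, with 0.57 (limma, adjusted p = 0.00478, and 0.0558 with quantile normalization), and the aspartate-glutamate carriers *Slc25a13* with 0.56 (limma, adjusted p = 0.00299) and *Slc25a12* with 0.36 (limma, adjusted p = 0.0203). *Slc13a5*, a plasma membrane carrier that takes up citrate, was under the filter and had 0.0207, 0.0107 and 0 FPKM with the WT label and 0.339, 0.295 and 0.158 FPKM with the KO label. *Slc25a12* did not pass with median-of-ratios scaling at 0.16 (limma, adjusted p = 0.203), quantile normalization at 0.17 (0.172) or upper-quartile scaling at 0.28 (0.0527). It also missed the threshold without WT replicate 1 (limma, adjusted p = 0.0576), KO replicate 1 (0.0707), KO replicate 2 (0.0755) or KO replicate 3 (0.0616), although its log2 difference there, from 0.35 to 0.37, was close to that with all 6 libraries.

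**Figure D5:**
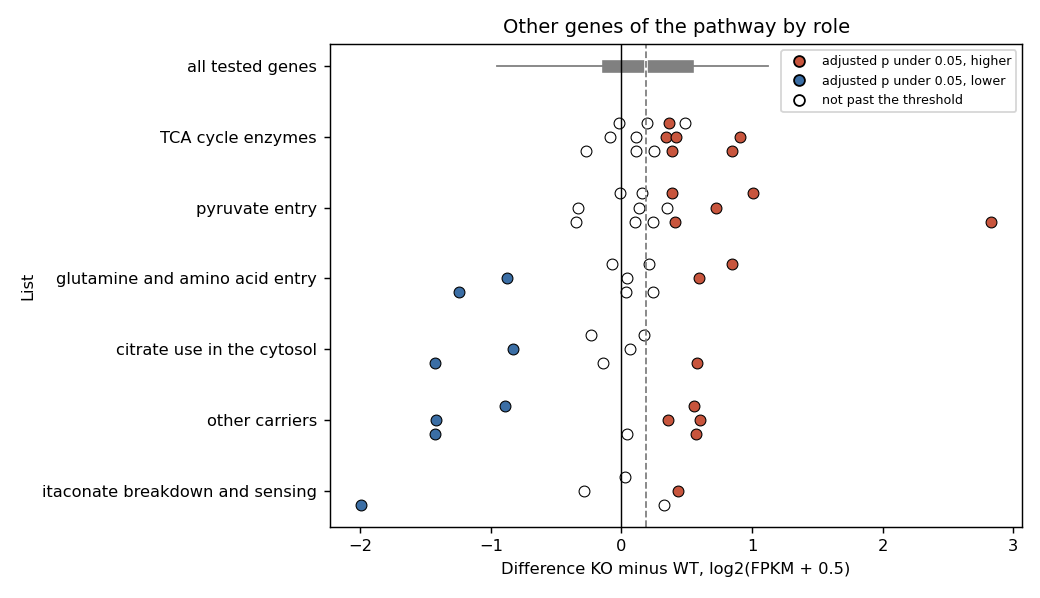
Log2 difference, KO minus WT, of each tested gene of the pathway list by role, filled where the adjusted p-value in limma was under 0.05. At the top, all 13367 tested genes are drawn as a bar from the 25th to the 75th percentile (-0.10 to 0.50) on a line from the 5th to the 95th (-0.95 to 1.12). *Pdk4* at 2.83 and *Irf1* at -1.99 are the extremes.

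The last group holds genes that break down itaconate or respond to it, with the regulator *Irf1*. Of 7 genes 5 were tested, while *Sucnr1* and *Oxgr1*, receptors of succinate and oxoglutarate, were listed at 0 in all libraries. *Irf1*, a transcription factor of the interferon response that is known to act on *Acod1*, had 45.5, 45.0 and 52.4 FPKM with the WT label and 11.1, 11.6 and 12.0 FPKM with the KO label. It fell in every alternative, with a log2 difference of -1.99 (limma, adjusted p = 1.44e-05). *Clybl* and *Auh*, mitochondrial enzymes of itaconate breakdown, had 0.33 (limma, adjusted p = 0.0952) and 0.03 (limma, adjusted p = 0.872). Without WT replicate 3 *Clybl* passed (limma, adjusted p = 0.0383). *Nfe2l2*, which encodes NRF2, rose by 0.43 (limma, adjusted p = 0.00431, and 0.0726 with median-of-ratios scaling). *Keap1* had a log2 difference of -0.28 (limma, adjusted p = 0.0716), and 5 of 16 alternatives called it lower. It passed with median-of-ratios scaling at -0.49 (limma, adjusted p = 0.0100), upper-quartile scaling at -0.37 (0.0341) and quantile normalization at -0.37 (0.0314). It also passed without WT replicate 3 at -0.36 (limma, adjusted p = 0.0156) and with replicate 3 of both groups left out at -0.36 (0.0227).

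*Kctd12*, a protein-coding gene 64340 bases before *Acod1*, had 27.5, 29.2 and 23.1 FPKM with the WT label and 45.3, 44.0 and 43.3 FPKM with the KO label, a log2 difference of 0.73 (limma, adjusted p = 0.00203). This rise held under every alternative.

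The 5 genes whose pattern over the 6 libraries was closest to that of *Acod1* were *Arg1*, *Cxcl9*, *Cxcl3*, *Rsad2* and *Ifi206*. Likeness was the root mean square distance between the log2(FPKM + 0.5) profiles, each centred on its own mean, which was 0.17, 0.60, 0.99, 1.06 and 1.16. The 6 libraries form 2 groups that differ in each of these genes, so the distance mostly compares the size of that difference. *Arg1*, arginase, was the nearest, with 165.8, 157.6 and 176.0 FPKM with the WT label and 0.329, 0.409 and 0.338 FPKM with the KO label. *Ifi206*, an interferon-inducible gene, had 40.8, 40.6 and 35.3 FPKM with the WT label and 0.385, 0.325 and 0.307 FPKM with the KO label. The log2 differences of the 5 genes ran from -7.60 for *Arg1* to -5.55 for *Ifi206*, against -7.86 for *Acod1*. *Cxcl9* had 48.7, 53.2 and 54.5 FPKM with the WT label and 0.0563, 0 and 0 FPKM with the KO label. *Cxcl3* had 26.08, 29.52 and 37.35 FPKM against 0, 0 and 0.0446 FPKM. The 0.5 added to each FPKM limits the differences of such low genes, so they do not rank the genes by change. Candidates needed a mean of at least 1 FPKM, which *Arg1*, *Cxcl9*, *Cxcl3* and *Ifi206* reached through the libraries labelled WT alone.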

How the data were processed

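In the 1 table deposited by the authors, values are FPKM of each gene in each library. The submitters' processing notes name fastp 0.17.1, HISAT2 2.1.0, DESeq2 1.18.1 and R 3.4.3, while the quantification tool, annotation and genome build are not given in the sources used here. RNA reagent, library kit and sequencer are named differently in the labels and in the methods. Of 55335 identifiers, 55154 (99.7%) were given a symbol and position from GENCODE (GRCm38). FPKM corrects for transcript length and library total, so large changes in abundant genes shift all others. Whole reads could not be recovered, so no count test was run.

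The test was that of limma 3.58.1 (R 4.3.3), on log2(FPKM + 0.5), with lmFit and a trended eBayes, two-sided and without covariates. It was run where the mean of the 6 libraries was 0.5 FPKM or more, and p-values were adjusted by Benjamini-Hochberg. P-values measure only the spread between these libraries. The members and gene lists were chosen with earlier results of these data known. Named were every member, TCA cycle genes, in other roles the 4 largest and 4 smallest log2 differences past the threshold, with *Irf1*, *Clybl*, *Auh* and *Keap1*, a neighbour of *Acod1*, the 5 genes most like it, and *Cd177* and *Ly6g*. *Pdk3*, *Pcx*, the macrophage and neutrophil markers, *Acaca*, *Fasn*, *Mdh1*, *Me1*, *Slc13a5*, *Sucnr1*, *Oxgr1*, *Snap25*, *Cd3d* and *Cd4* were named after their values were seen. On simulated data with 200 of 13367 genes changed by 1 on the log2 scale, 119 were called in the right direction, with 10 false calls. Far more genes were called in the real libraries (27.1% higher, 10.5% lower), so this does not give the sensitivity there. Alternatives changed the pseudocount, filter, scaling, block and libraries. Some genes covered by this rule are not reported here.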

Additional observations from a re-analysis of the deposited data

How the results depend on the processing

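The direction of *Acod1* held under every alternative, and its size depended on the pseudocount and, far less, on the scaling between libraries. The log2 difference was -9.26 with pseudocount 0.1 and -7.04 with pseudocount 1. It was -7.98, -7.91 and -7.83 with median-of-ratios, upper-quartile and quantile scaling, against -7.86 as deposited. With values rescaled to TPM it was -8.94. That rescaling raises all values of a library while the pseudocount stays the same. The TPM value is thus no measure of scaling between libraries alone. When 1 library was left out the log2 difference of *Acod1* was between -7.90 and -7.81. Relative to the other 8 genes of its library the difference was -9.42 with pseudocount 0.1 and -7.19 with pseudocount 1. It was between -8.08 and -7.95 when 1 library was left out. Median-of-ratios scaling gave 2156 genes higher and 2215 lower of those tested, against 3619 and 1408, and in the pathway list 10 higher and 13 lower, against 19 and 8. The share of calls that were higher was 72.0% as deposited, and 49.3%, 63.6% and 55.7% with median-of-ratios, upper-quartile and quantile scaling. A filter at a mean of 5 FPKM left 6835 genes to test, of which 1756 were higher. With each library left out between 2442 and 4228 genes were higher and between 1047 and 1717 lower, and in the pathway list between 14 and 21 and between 8 and 9. Leaving out replicate 3 of both groups, chosen after seeing the data because these libraries had the largest FPKM sums, gave 4518 higher and 1943 lower, and 21 and 12 in the list. Replicate numbers are shared between the groups, but deviations of same-numbered libraries correlated with r of 0.12, 0.04 and 0.26, and WT replicate 2 correlated best with KO replicate 1, so the numbers were not taken as pairs. With the replicate number as a block 4253 genes were higher and 1681 lower, and 19 and 9 in the list. The 5 to 9 steps of *Acod1* in the libraries labelled KO limit its level there, and the scaling limits any direction among the other 8 genes smaller than the shift of all genes.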
